A study of Homo sapiens with 5 samples.

Results

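The genes described here are the clustered histone genes and linker histones, 73 of 19936 genes in the files, whose current symbol starts with H1-, H2AC, H2BC, H3C or H4C. They were chosen by symbol, mapped from Ensembl gene IDs, and not by any measured value, although the family was picked out with earlier results of these data known. The set holds 9 H1, 17 H2A, 19 H2B, 13 H3 and 15 H4 genes. Of these, 55 lie on chromosome 6 between bases 25726132 and 27893843 (GRCh38), 13 on chromosome 1, and 5 elsewhere. The RNA came from LX-2, an established human hepatic stellate cell line, the cell type that deposits scar matrix in the liver. Cells received a control siRNA (control 1 and 2) or an siRNA against LIX1L (siLIX1L 1, 2 and 3) and were harvested 48 h later as total RNA. All 5 libraries therefore come from 1 transfected line with no other treatment named, and nothing in the labels ties a library to a culture of its own. Spread between libraries, on which the p-values below rest, may therefore be technical.

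Core histones H2A, H2B, H3 and H4 form the protein spool that DNA winds around, and linker histones of the H1 family bind where DNA enters and leaves it. Most of their genes sit in clusters, have no introns and are transcribed in S phase. Their mRNAs end in a conserved stem-loop in place of a poly(A) tail, which the stem-loop binding protein SLBP recognises during processing, translation and decay. A few members, such as H1-10, are expressed outside S phase from polyadenylated mRNAs. Others, among them H1-2, H2AC6, H2BC5, H2BC12 and H2BC21, are known to have a polyadenylated form beside the stem-loop form. No source used here says whether poly(A)-bearing RNA was selected, so a histone value may reflect the polyadenylated form, the stem-loop form or both.

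The libraries held between 14856104 and 18294056 reads assigned to genes. The deposited values are FPKM, fragments scaled to gene length and library size, and whole reads could be recovered from them for every gene. LIX1L itself had a mean of 1.26 FPKM in the controls and 0.235 after its siRNA (limma adjusted p = 0.0384). Markers of stellate cells summed to 3821 RPM in control 1, 10319 in control 2 and 6473 to 6990 after LIX1L siRNA (reads divided by the library total and scaled as in CPM), with DES near 0. Summed markers of hepatocytes came to 1.52 to 6.45 RPM, of endothelium to 1.97 to 6.75, of leukocytes to 5.05 to 36.5 (the highest in control 2) and of cholangiocytes to 1.06 to 4.37. The share of reads from the mitochondrial genome was 2.24% and 3.35% in the controls and 1.08% to 1.29% after LIX1L siRNA, and the part of this in the histone results was not tested. By chi-square per gene the pair siLIX1L 1 and siLIX1L 2 was the most alike over the histone genes, at 2.44 against 6.42 or more for the other pairs. By median absolute log2 difference over the histone genes siLIX1L 2 and siLIX1L 3 were closer, at 0.160 against 0.257 for siLIX1L 1 and siLIX1L 2. Over all genes siLIX1L 1 and siLIX1L 2 were the closest pair by both measures. Their chi-square per gene was 5.59, against 55.4 for either of them with siLIX1L 3. Their median absolute log2 difference was 0.122, against 0.262 and 0.267.

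Histone transcripts were very unequal in level. A total of 14 members had no read in any library, 59 had at least 1 read, 43 had a read in every library and 11 had at least 100 reads in every library. The 14 at 0 were H1-1, H1-8, H2AC1, H2AC15, H2AC17, H2AC18, H2AC21, H2BC1, H2BC12L, H3C14, H3C15, H3C4, H4C6 and H4C7. Of these, 8 overlap another gene or share over 50% of their 50-base stretches with one, so a value of 0 need not mean that no transcript was there. Only 27 members reached 1 FPKM in at least 2 libraries and were tested, and 46 stayed under that minimum. H1-3 reached it only through the controls and H4C11 only through the LIX1L siRNA libraries, so the direction of these 2 follows from the minimum and is not support for a change.

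Transcripts of 3 members fell after LIX1L siRNA in limma at an adjusted p below 0.05, namely the linker histones H1-2 and H1-4 and the H2A gene H2AC19, and none rose. Over all 6464 genes tested the same threshold called 1.87% in either direction and 1.13% as lower. Of the other 24 tested members none passed. On the log2(FPKM + 1) scale 18 of the 27 tested members were negative and 9 positive, with a median of -0.26 against -0.01 over all tested genes. The groups did not overlap for 15 members, 11 lower and 4 higher after LIX1L siRNA. Over all tested genes the groups were apart in 23.0% on the lower side and 23.5% on the higher side. At an unadjusted limma p below 0.05, 10 members (H1-3 among them) were lower and 1 was higher. Over all tested genes these shares were 14.0% and 13.6%, or 27.6% in either direction. Without H1-3 and H4C11, 17 of 25 members were negative, with a median of -0.26, and 10 were lower and 4 higher without overlap.

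The count rested on single libraries and on the test. It was 11 without control 1, 6 without control 2 and 0 without siLIX1L 1, without siLIX1L 2 or without siLIX1L 3, and also 0 with siLIX1L 1 and 2 averaged into 1 sample. Over all 6464 genes the share called was 25.5% without control 1 and 5.21% without control 2. No gene of the 6464 was called without any 1 of the LIX1L siRNA libraries or with 2 of them averaged, so these zeros are not particular to histone genes. On recovered reads edgeR called 1 of 32 tested members, H1-2, against 0.891% of all genes. DESeq2 called 4, H1-2, H1-10, H2AC19 and H2BC21, against 12.5% of all genes. It gave an adjusted p to more members than the 27 that limma tested, so 4 of 27 would overstate its share. Short transcripts as a whole leaned the same way. The 167 other tested genes with a longest transcript of 1000 bases or less had a median of -0.33, and 82.0% of them were negative. Over all 27 tested histone genes 66.7% were negative, but only 16 of these are this short, so the shares are of unlike sets. The 155 other tested genes with 1 exon had a median of -0.03, and 51.0% of them were negative. Of the 27 histone genes 22 have 1 exon. With the trend over transcript length and GC content removed, an alternative added after the data were seen, 14 of the 27 histone genes were negative, 13 were positive and none passed, nor did any other gene, the smallest adjusted p of a histone gene being 0.0671 (limma).

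**Figure D1:**
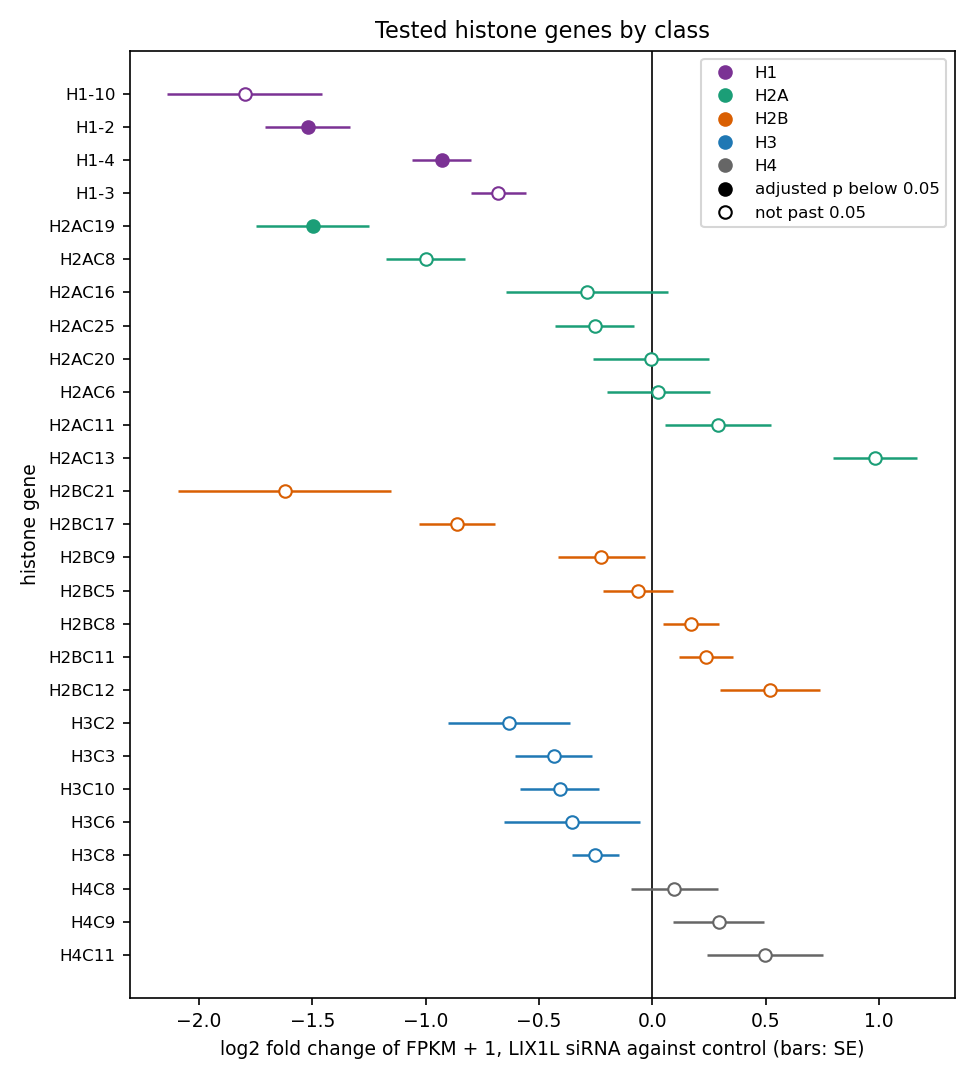
Log2 fold change of FPKM + 1 after LIX1L siRNA against control (x axis; bars are standard errors from limma, 2 control and 3 LIX1L siRNA libraries) for the 27 tested histone genes, coloured by class. Filled points mark H1-2, H1-4 and H2AC19, the genes past an adjusted p of 0.05, and all 4 tested H1 genes and all 5 tested H3 genes lie left of 0. H1-3 and H4C11 were tested through 1 group only, so their side of 0 follows from the minimum.

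Of the 9 linker histones described, 4 were tested. Leaving aside H1-3, which was tested only through its controls, H1-2, H1-4 and H1-10 were negative with groups that did not overlap, which 23.0% of all tested genes had on the lower side. H1-2 and H1-4 passed the limma threshold. All 3 also stayed negative with the length and GC trend removed.

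H1-2 (ENSG00000187837, chr6:26055787-26056428, GRCh38, minus strand, a gene without introns) is a replication-linked linker histone with a known polyadenylated form. It stood at 203 and 167 FPKM in the controls and at 65.4, 60.1 and 65.0 FPKM after LIX1L siRNA. Both controls were well above every LIX1L siRNA library, and the latter lay close together. The group means were 185 ± 26.0 (SD, n = 2) and 63.5 ± 2.94 (SD, n = 3) FPKM, a log2 fold change of -1.52 (SE 0.19, limma adjusted p = 0.0384). Summed over the libraries of each group the reads were 2.88-fold lower after LIX1L siRNA (exact 95% interval 2.73 to 3.04, counting error only). EdgeR on recovered reads also called it lower (log2 fold change -1.55, adjusted p = 0.0373). Its log2 fold change was negative in all 15 alternatives, from -1.66 to -1.15, and it passed in 8 of them, the adjusted p running from 2.54e-09 to 0.230. With the length and GC trend removed the adjusted p was 0.0735 in limma.

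H1-4 (ENSG00000168298, chr6:26156354-26157107, plus strand), another replication-linked linker histone, was far scarcer per length. Its values were 3.03 and 2.54 FPKM in the controls and 0.893, 0.878 and 1.19 FPKM after LIX1L siRNA, and the groups did not overlap. The log2 fold change was -0.93 (SE 0.13, limma adjusted p = 0.0384). The depth behind it was 34 and 35 reads in the controls and 10, 10 and 16 reads after LIX1L siRNA, and edgeR gave an adjusted p of 0.0834. It passed in 6 of 14 alternatives. H1-3, of the same kind, had 1.31 and 1.15 FPKM in the controls and 0.303, 0.298 and 0.590 after LIX1L siRNA (log2 fold change -0.68, limma adjusted p = 0.0503). These values rest on 3 to 14 reads per library. H1-5, with 5 to 16 reads per library, was not tested and its groups overlapped.

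H1-10 (ENSG00000184897, chr3:129314771-129316277, minus strand) encodes a linker histone made from a polyadenylated mRNA. It stood at 59.3 and 133 FPKM in the controls and at 26.2, 22.2 and 26.3 FPKM after LIX1L siRNA. The controls differed from each other by more than the lower of them differed from the LIX1L siRNA libraries. Its log2 fold change of -1.80 was the most negative among the tested histone genes (SE 0.34), but the adjusted p of 0.0520 in limma and 0.0506 in edgeR missed the threshold. DESeq2 called it at an adjusted p of 1.37e-05. It also passed in limma without control 1 and without control 2, and in 5 of 15 alternatives in all, the adjusted p running up to 0.239.

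**Figure D2:**
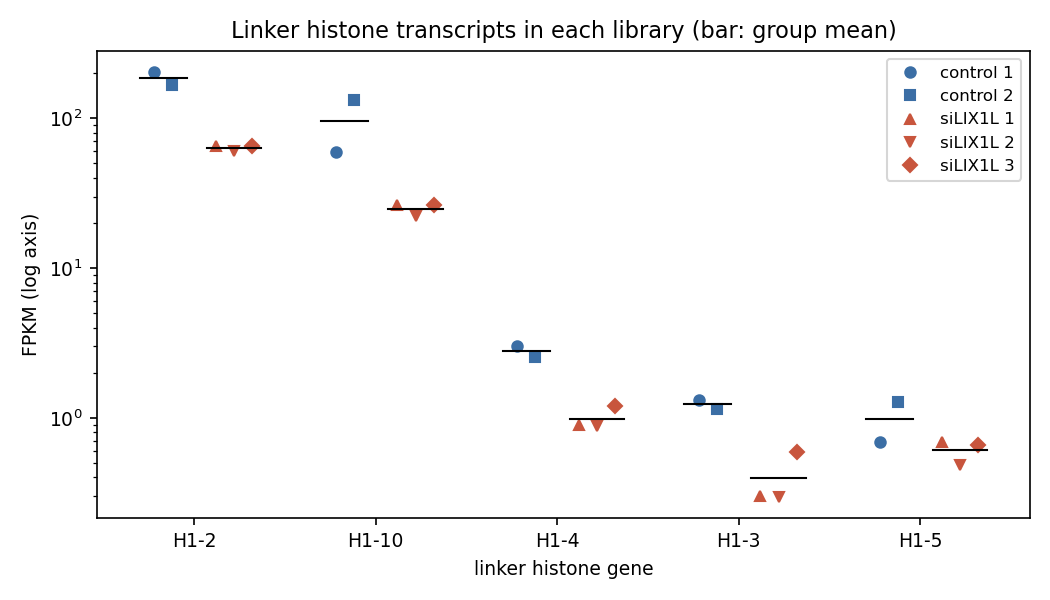
FPKM (y axis, log scale) of 5 linker histone genes (x axis) in each of the 5 libraries, with control libraries in blue, LIX1L siRNA libraries in red and short bars at the group means. For H1-2, H1-10, H1-4 and H1-3 every red point lies below both blue points, while H1-5 overlaps, and the blue points of H1-10 are widely spaced. H1-3 reached the minimum for testing only through its controls.

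Added up per length, the linker histones described came to 267.6 and 304.7 FPKM in the controls and 93.5, 84.3 and 93.9 FPKM after LIX1L siRNA. The controls were close to each other and well above every LIX1L siRNA library. The means of 286 ± 26.2 (SD, n = 2) and 90.6 ± 5.44 (SD, n = 3) FPKM were 3.16-fold apart. Most of this level was H1-2, which made up 76.0% of it in control 1, 54.6% in control 2 and 69.2% to 71.3% after LIX1L siRNA. H1-10 made up 22.1%, 43.7% and 26.3% to 28.0%. By composition control 2 stood apart, with the largest share of H1-10.

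The promoters of the 3 linker histones that follow are shown because 2 of them belong to the genes that passed and the third to a linker histone of another type. They run from 250 bases before to 50 after the gene start (RefSeq, GRCh38.p14, 5′ to 3′ on the gene's strand). Capitals mark the CCAAT box (CCAAT), the TATA box (TATAAA), the octamer of H2B promoters (ATTTGCAT) and the H1 box (AAACACA), each searched on both strands. Runs of capitals can hold overlapping matches, which 4 member promoters have.
H1-2, chr6:26056421-26056720, minus strand: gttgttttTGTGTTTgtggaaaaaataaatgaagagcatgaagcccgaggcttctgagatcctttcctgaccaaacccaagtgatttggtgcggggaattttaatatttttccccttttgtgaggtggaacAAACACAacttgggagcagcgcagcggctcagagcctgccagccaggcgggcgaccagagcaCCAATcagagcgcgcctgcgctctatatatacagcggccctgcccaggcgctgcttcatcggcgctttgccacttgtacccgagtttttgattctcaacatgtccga
H1-4, chr6:26156079-26156378, plus strand: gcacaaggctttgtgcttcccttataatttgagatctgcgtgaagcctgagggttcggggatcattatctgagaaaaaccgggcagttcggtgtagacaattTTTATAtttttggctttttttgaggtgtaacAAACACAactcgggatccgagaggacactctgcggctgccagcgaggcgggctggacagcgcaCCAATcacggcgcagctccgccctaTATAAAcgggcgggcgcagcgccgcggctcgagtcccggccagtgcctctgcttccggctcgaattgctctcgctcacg
H1-10, chr3:129316237-129316536, minus strand: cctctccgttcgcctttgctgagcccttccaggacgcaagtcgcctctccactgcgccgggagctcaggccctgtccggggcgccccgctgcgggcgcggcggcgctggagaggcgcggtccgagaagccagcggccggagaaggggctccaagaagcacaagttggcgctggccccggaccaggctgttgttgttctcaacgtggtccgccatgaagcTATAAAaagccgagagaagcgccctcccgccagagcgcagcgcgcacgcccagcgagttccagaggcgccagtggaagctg
In H1-2 and H1-4 an H1 box starts 119 and 117 bases before the gene start and a CCAAT box 57 and 54 bases before it. In H1-10 neither set of letters is in the window, and the match is a TATA box 31 bases before the start. A promoter was found for 67 of the 73 members. The H1 box was in 7 of 9 linker histone promoters against 5.64% of all 35116 promoters in the table. The CCAAT box was in 56 of the 67 promoters but in only 3 of 13 H4 promoters, against 34.6% of all. TATA boxes were in 44 of 67, against 11.5%. A match is a description of letters and does not show that a factor binds there.

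Among H2A genes 8 were tested, 5 negative and 3 positive, and 1 passed. H2AC19 (ENSG00000272196, chr1:149851061-149851624, plus strand) stood at 3.46 and 6.98 FPKM in the controls and 1.31, 0.939 and 1.09 FPKM after LIX1L siRNA. Every LIX1L siRNA library lay below both controls. The log2 fold change was -1.50 (SE 0.25, limma adjusted p = 0.0463), and edgeR gave an adjusted p of 0.0611. Of its 50-base stretches 97.1% also occur in another gene, and its near-identical copy H2AC18 was at 0 in all 5 libraries, so reads of the pair cannot be told apart. H2AC8, with a sequence of its own, had 2.51 and 4.08 FPKM in the controls and 1.06, 1.17 and 1.10 after LIX1L siRNA (log2 fold change -1.0, SE 0.17, limma adjusted p = 0.0502).

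The positive end of the class was H2AC13, at 2.14 and 2.83 FPKM in the controls and 6.42, 6.58 and 4.69 FPKM after LIX1L siRNA. Its groups did not overlap, its log2 fold change of 0.98 (SE 0.19) was the highest among the tested histone genes, and it missed the threshold (limma adjusted p = 0.0526). Another gene shares 62.3% of its 50-base stretches. The 3 H2A genes with the most reads had small differences that did not pass. H2AC6 had 4.23 and 2.23 FPKM in the controls and 2.98, 2.87 and 3.76 after LIX1L siRNA (log2 fold change 0.03, SE 0.23, limma adjusted p = 0.952), and the controls bracketed the LIX1L siRNA libraries. H2AC25 had 18.2 and 15.5 FPKM against 13.5, 12.5 and 15.9 (-0.26, SE 0.18, limma adjusted p = 0.384), with overlapping groups. H2AC11 had 4.90 and 2.43 FPKM against 4.61, 4.41 and 4.47 (0.29, SE 0.24, limma adjusted p = 0.460), where control 2 alone was low. The deposited length of H2AC6 is a gene span of 14972 bases that includes an intron, against 1668 bases for its longest transcript, which lowers its value per length.

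Of 7 tested H2B genes 4 were negative and 3 positive. None passed in limma or edgeR, 2 had an unadjusted limma p below 0.05 (27.6% of all tested genes did), and DESeq2 called H2BC21. H2BC21 (ENSG00000184678, chr1:149884459-149886652, minus strand), known for a polyadenylated mRNA in resting cells, had 14.4 and 21.6 FPKM in the controls and 2.98, 3.74 and 10.8 FPKM after LIX1L siRNA. The groups did not overlap, but siLIX1L 3 lay nearer to control 1 than to the other LIX1L siRNA libraries. Its log2 fold change was -1.62 (SE 0.47, limma adjusted p = 0.0970; DESeq2 adjusted p = 0.0245). H2BC17 had 8.82 and 6.89 FPKM against 3.53, 4.34 and 3.68, without overlap (-0.86, SE 0.17, limma adjusted p = 0.0526). H2BC12, the H2B gene with the highest level per length, went the other way, with 91.0 and 62.4 FPKM in the controls and 116, 101 and 109 FPKM after LIX1L siRNA. All 3 LIX1L siRNA libraries were above both controls, but the log2 fold change of 0.52 (SE 0.22) did not pass (limma adjusted p = 0.188), and 74.1% of its 50-base stretches occur in another gene. H2BC11 and H2BC8 were also higher without overlap, at log2 fold changes of 0.24 and 0.17, and did not pass. H2BC5 had 1.83 and 1.09 FPKM against 1.42, 1.34 and 1.23 (-0.06, SE 0.15), with the controls on both sides of the LIX1L siRNA libraries.

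H2BC21 and H2BC12 lay at opposite ends of the class, so their promoters are shown side by side, with capitals as above.
H2BC21, chr1:149886633-149886932, minus strand: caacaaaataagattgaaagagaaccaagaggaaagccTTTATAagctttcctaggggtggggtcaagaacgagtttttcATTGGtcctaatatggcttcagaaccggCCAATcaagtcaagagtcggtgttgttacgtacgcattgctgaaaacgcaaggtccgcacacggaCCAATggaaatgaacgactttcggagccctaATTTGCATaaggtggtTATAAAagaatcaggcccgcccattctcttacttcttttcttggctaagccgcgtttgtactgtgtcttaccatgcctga
H2BC12, chr6:27146806-27147105, minus strand: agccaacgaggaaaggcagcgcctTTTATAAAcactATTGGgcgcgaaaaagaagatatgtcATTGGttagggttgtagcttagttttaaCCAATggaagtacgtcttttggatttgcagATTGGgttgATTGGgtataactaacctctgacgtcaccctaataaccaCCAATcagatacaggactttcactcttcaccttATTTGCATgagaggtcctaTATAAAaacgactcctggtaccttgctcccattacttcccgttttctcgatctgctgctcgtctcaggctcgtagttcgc
Both hold the octamer, starting 46 bases before the gene start in H2BC21 and 49 bases before it in H2BC12, and a TATA box starting 30 bases before it in each. The octamer was in 14 of 18 H2B and 11 of 16 H2A promoters, in none of the 9 H1, 11 H3 and 13 H4 promoters, and in 1.77% of all promoters.

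H2A and H2B genes often lie head to head. In the annotation 11 pairs have starts 219 to 331 bases apart on opposite strands. In 3 pairs both genes were tested. H2AC11 and H2BC11 were both positive (0.29 and 0.24 on the log2 scale). H2AC20 was at -0.01 while its partner H2BC21 was at -1.62, and H2AC8 was at -1.0 while H2BC8 was at 0.17. None of these 6 genes passed in limma, and the difference within a pair was not tested. In the pair H2AC12 and H2BC12 the reads were on 1 side, with 9 reads over all libraries for H2AC12 and 2928 for H2BC12.

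All 5 tested H3 genes were negative, with a median log2 fold change of -0.41, and none passed in limma, edgeR or DESeq2. Groups were apart for 3 of them, against 23.0% of all tested genes on the lower side. An unadjusted limma p below 0.05 was reached by 2, against 14.0% on the lower side. H3C10, the H3 gene with the most reads, had 7.28 and 6.36 FPKM in the controls and 5.88, 4.66 and 4.22 FPKM after LIX1L siRNA. The groups were apart by a narrow margin, and the log2 fold change was -0.41 (SE 0.17, limma adjusted p = 0.185). H3C8 had 1.37 and 1.31 FPKM against 0.838, 1.02 and 1.05 (-0.25, SE 0.10, limma adjusted p = 0.176), also without overlap. H3C6 had 2.71 and 0.901 FPKM against 1.58, 0.849 and 0.874 (-0.36, SE 0.30, limma adjusted p = 0.475), where control 1 alone was high. H3C3 and H3C2, with 3 to 27 reads per library, had log2 fold changes of -0.44 and -0.63 and did not pass.

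Of the H4 genes 3 were tested and all were positive, but H4C11 was tested only through the LIX1L siRNA libraries. None passed in limma, edgeR or DESeq2 or had an unadjusted limma p below 0.05. Among H4 genes with reads but under the minimum, all but H4C12 were negative in the fits that held them. H4C9 had 8.78 and 11.4 FPKM in the controls and 15.1, 11.4 and 11.3 after LIX1L siRNA (0.29, SE 0.20, limma adjusted p = 0.382), and the groups overlapped. H4C8 had 2.38 and 1.24 FPKM against 2.12, 1.96 and 1.75 (0.10, SE 0.19, limma adjusted p = 0.774), again with control 2 alone low. H4C11 had 0.360 and 0.440 FPKM against 1.26, 0.355 and 1.51 (0.50, SE 0.26, limma adjusted p = 0.260), on 2 to 10 reads per library and with 81.2% of its 50-base stretches in another gene. H4C5 was under the minimum for limma. It had 20 and 48 reads in the controls and 17, 12 and 18 after LIX1L siRNA, and its edgeR log2 fold change was -1.04 (adjusted p = 0.202).

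Below the minimum, 32 members had reads in at least 1 library. EdgeR could test 8 of them, and the smallest adjusted p was the 0.202 of H4C5. H2AC4 had 5 and 4 reads in the controls and none after LIX1L siRNA, and H2BC10 had 2 and 5 reads and none. The other 2 genes with reads in controls only were H2AC7 with 1 read and H4C13 with 2, and H1-6 had 4 reads, all after LIX1L siRNA. A count of 0 in a single library still allows up to 3 reads, counting error only. This is 0.202 RPM in siLIX1L 1, 0.199 in siLIX1L 2 and 0.168 in siLIX1L 3. H2AC4 was above these bounds in both controls, at 0.336 and 0.219 RPM. H2BC10, at 0.134 and 0.273 RPM, was above them in control 2 alone. Neither reached the minimum for the test. For H2AC7, H4C13 and H1-6, with 1, 2 and 4 reads, a difference was not detectable at this depth.

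Summed by class, the reads give the level of each class among assigned reads. This need not be the balance of linker and core histone mRNA, because the form of mRNA captured is not known. H1 genes took 223.5 and 311.2 RPM in the controls and 82.9, 73.6 and 83.3 RPM after LIX1L siRNA. The group means of 267.4 ± 62.1 (SD, n = 2) and 79.9 ± 5.49 (SD, n = 3) gave a ratio of 0.299 to control. H1-10 was 40.0% to 64.5% of the sum, and H1-2 had more reads than H1-10 in every library but control 2. The 4 core classes together had a ratio of 0.917, with H2A at 0.958, H2B at 0.888, H3 at 0.674 and H4 at 1.08. For H2A and H4 the LIX1L siRNA libraries overlapped the controls, as they did for H2B, whereas for H3 both controls were higher than all 3. Without H2BC12, its member with the most reads, H2B was at 0.730. Linker histones made up 43.4% and 57.7% of the reads of the 73 genes in the controls and 25.5%, 24.9% and 24.9% after LIX1L siRNA, so both controls had the larger share. No p is given for these sums, because the members were chosen with results known.

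**Figure D3:**
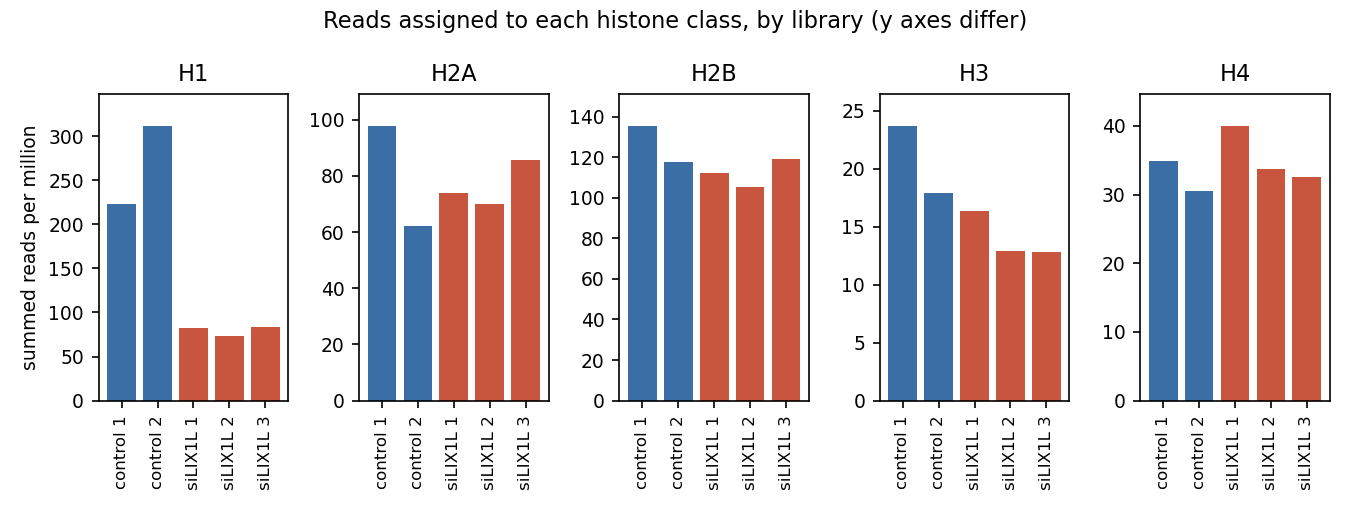
Summed RPM (y axis from 0, a different scale in each panel) of the genes of each histone class in the 5 libraries, with control libraries in blue and LIX1L siRNA libraries in red. In H1 and H3 both blue bars exceed every red bar, while in H2A, H2B and H4 the groups overlap.

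The 8 members listed as having a known polyadenylated form carried 64.4% to 80.9% of the reads of the 73 genes. They summed to 384.7 and 436.1 RPM in the controls and 209.6, 193.3 and 231.7 RPM after LIX1L siRNA, a ratio of 0.515. The groups did not overlap in this sum. H1-10 was 17.1% to 46.0% of it and led only in control 2 and in reads summed over the libraries. Without it the ratio was 0.656. H1-2 was still in that sum, at 130.5 and 106.9 RPM in the controls and 42.0, 38.6 and 41.7 RPM after LIX1L siRNA. Of the 7 tested, 4 were negative and 3 positive, with a median log2 fold change of -0.06, and only H1-2 passed. The lower sum is therefore not a fall of the set as a whole. The other 65 members summed to 130.3 and 103.2 RPM in the controls and 115.6, 102.0 and 102.1 RPM after LIX1L siRNA, a ratio of 0.913. In that sum the groups overlapped.

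The stem-loop was searched for in the annotated 3′ UTR of each member (GENCODE 29, GRCh38). Of the 73, 39 have an annotated 3′ UTR and 31 of these hold a stem-loop, 23 of them with 100 or more bases annotated beyond it, as a longer mRNA would need. Over whole protein-coding transcripts it was in 35 of 85 from members and in 140 of 83044 from other genes (0.169%). The sites below come from genes described above, 1 or 2 per core class, written with 5 bases on each side and the stem-loop in capitals.
H2AC8, chr6:26217417-26217432, plus strand: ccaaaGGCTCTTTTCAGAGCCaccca
H2BC21, chr1:149886188-149886203, minus strand: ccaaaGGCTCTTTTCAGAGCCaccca
H2BC5, chr6:26158587-26158602, plus strand: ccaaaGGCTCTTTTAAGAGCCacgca
H3C10, chr6:27810516-27810531, plus strand: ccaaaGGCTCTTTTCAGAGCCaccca
H4C9, chr6:27139654-27139669, plus strand: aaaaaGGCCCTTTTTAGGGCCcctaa
H2AC8, H2BC21 and H3C10 share the same 16 letters although their log2 fold changes were -1.0, -1.62 and -0.41. Annotation continues for 1729 bases after the stem-loop in H2BC21 and for 51 bases in H2AC8. No match was in the 3′ UTR of H1-10 (490 bases), and H1-2 and H2BC12 have none annotated.

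Tested members of the chromosome 6 cluster had both signs, also next to each other. H1-2 at -1.52 lay between H3C3 at -0.44 and H2AC6 at 0.03, in the order of tested members, and H1-4 at -0.93 between H2AC6 and H2BC5 at -0.06. Of 20 other genes inside the cluster, 10 were tested, 2 of them negative and 8 positive. None passed the threshold in limma, edgeR or DESeq2, and 1 had an unadjusted limma p below 0.05, against 27.6% of all tested genes. The butyrophilin gene BTN2A2 at -0.35 and the chromatin protein gene HMGN4 at 0.28 were the most negative and the most positive of these neighbours, picked after their values were seen.

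**Figure D4:**
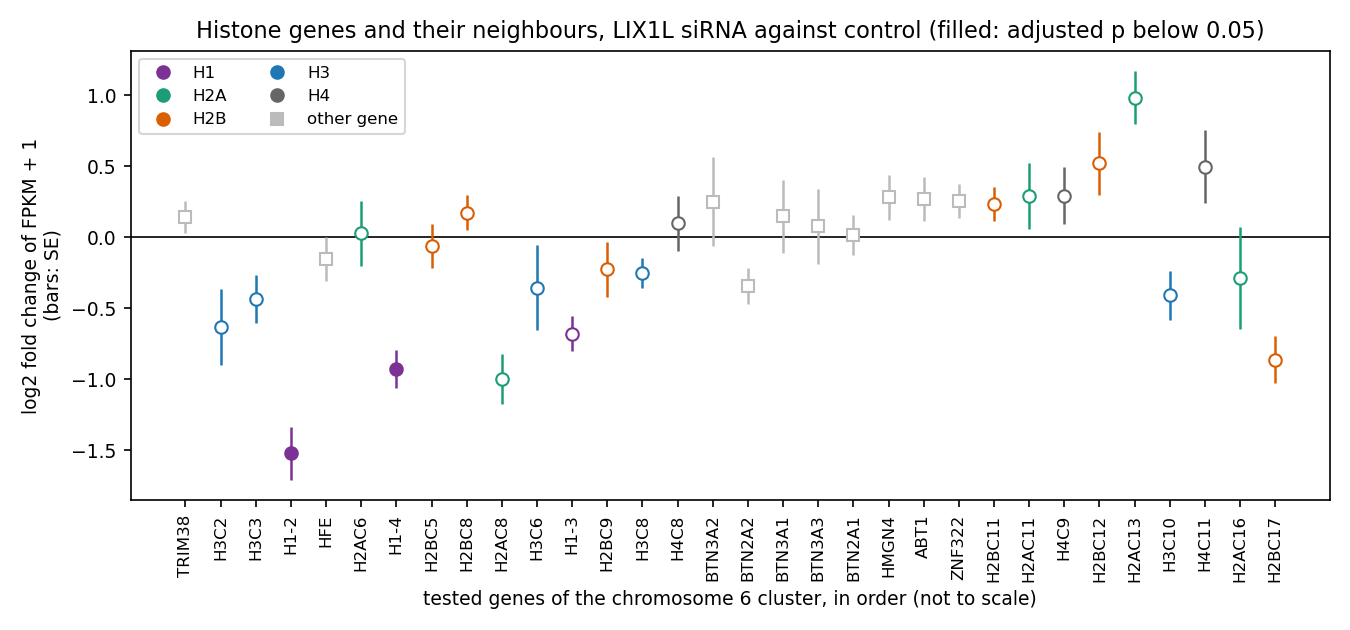
Log2 fold change of FPKM + 1 after LIX1L siRNA against control (y axis; bars are standard errors from limma) for tested genes of the chromosome 6 cluster in their order along it (x axis, not to scale), histone genes as circles and other genes as grey squares. H1-2 and H1-4 are filled as past an adjusted p of 0.05, and negative and positive histone genes are interspersed along the cluster.

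Of 31 genes that make, process or remove histone mRNA, 20 were tested, 10 negative and 10 positive, and none passed in limma or edgeR. In that list 6 had an unadjusted limma p below 0.05, a share near the 27.6% of all genes. DESeq2 called 3 of the list, against 12.5% of all genes. SLBP had a mean of 8.57 FPKM in the controls and 6.96 after LIX1L siRNA (log2 fold change -0.26, limma adjusted p = 0.370). NPAT, the coactivator that switches on clustered histone genes, had 0.895 and 0.983 FPKM (0.07, limma adjusted p = 0.732). The smallest adjusted p belonged to TUT7, which adds uridines to RNA ends, at 0.575 and 1.09 FPKM (0.41, limma adjusted p = 0.0752) and to the transcription factor E2F1 at 23.2 and 9.18 FPKM (-1.27, limma adjusted p = 0.0910).

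Of 22 histone chaperone genes 17 were tested, 12 negative and 5 positive, with 4 at an unadjusted limma p below 0.05 and 3 called by DESeq2. Over all genes tested 27.6% reached that unadjusted p and DESeq2 called 12.5%, the shares to set beside the variant histones below too. ASF1B, which hands H3 and H4 to the replication fork, fell by 1.05 on the log2 scale, with means of 8.13 and 3.39 FPKM (limma adjusted p = 0.0384). Next came UBN1, of the HIRA complex, at 2.0 and 3.79 FPKM (0.68, limma adjusted p = 0.0552). Variant histone genes, which make replacement histones outside S phase, had 7 of 9 members tested, 5 negative and 2 positive, and none passed in limma or edgeR (1 at an unadjusted limma p below 0.05, 2 called by DESeq2). H2AJ was nearest, at 13.6 and 5.82 FPKM (-1.10, limma adjusted p = 0.0517), followed by H2AZ1 at 153 and 112 FPKM (-0.45, limma adjusted p = 0.208). Of 20 S phase enzyme and replication genes 18 were tested, and 17 were negative and 1 positive, with a median of -0.48. TK1, which makes thymidine nucleotides, fell by 1.13 on the log2 scale, with means of 27.0 and 11.8 FPKM (limma adjusted p = 0.0384), and it alone passed of that list in limma and in edgeR. Of the 18, 14 had groups that did not overlap and were lower, against 23.0% of all tested genes. An unadjusted limma p below 0.05 was reached by 14, against 27.6%, and DESeq2 called 10 of the list, against 12.5%. The number of cells in S phase was not measured, and its part in the histone values was not tested. Fewer cells expressing a histone gene and less of its RNA per cell cannot be told apart in these bulk libraries.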

How the data were processed

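Per the labels' protocols, total RNA of LX-2 cells was sequenced with standard Illumina libraries; no source used here gives strand or poly(A) selection. Per the submitters' processing notes reads were aligned with Bowtie 0.12.2. Those notes name a mouse genome build, while the files hold human Ensembl IDs. The authors deposited FPKM per gene for each library, and read counts and gene lengths with one of them. Deposited lengths equal the GENCODE 29 gene span (GRCh38) for 98.2% of genes and all 73 members, so FPKM of genes with introns is low. FPKM times length gave whole reads for 100% of values within 0.01, equal to the deposited counts for all 19936 genes of siLIX1L 3.

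Genes that reached 1 FPKM in 2 or more libraries were tested with limma 3.58.1 (trend and robust, two-sided) on log2(FPKM + 1), which understates changes of low genes, with Benjamini-Hochberg adjustment over 6464 genes and a threshold of 0.05. EdgeR 4.0.16 (quasi-likelihood, TMM), DESeq2 1.42.0, other minimums, pseudocounts and scalings, a replicate block, each library left out, and removal of a length and GC trend were alternatives, run in R 4.3.3; scripts were tested on simulated data. Symbols came from the Ensembl IDs (69 members) or RefSeq synonyms (4), and 1 further gene that meets the symbol rule is not reported here, promoters from RefSeq (GRCh38.p14), and stem-loops and 50-base sharing from GENCODE 29 transcripts.

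Named genes are, in each class, the 3 with the most reads, every member past limma or edgeR, the 3 tested members with the largest log2 change in each direction, LIX1L, SLBP and NPAT, and of each list those past the threshold or up to 2 with the smallest p; the remaining ones are named to account for members. Lists covered known polyadenylated histones, histone mRNA production and decay, chaperones, variant histones, S phase genes and markers of stellate cells, hepatocytes, endothelium, leukocytes and cholangiocytes. The members and lists were chosen with earlier results of these data known.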

Additional observations from a re-analysis of the deposited data

How the results depend on the processing

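The number of histone genes past the threshold was 3. It was 0 with no minimum level, 7 with quantile normalization, 0 with siLIX1L 1 and 2 averaged, 1 with edgeR, 4 with DESeq2 and 0 after removal of the length and GC trend, and ranged from 0 to 11 when 1 library was left out. Over all genes the counts were 121 in the reported test, 233 with quantile normalization, and 0 with no minimum level, with siLIX1L 1 and 2 averaged, with the trend removed or without any 1 LIX1L siRNA library. For the genes of histone mRNA production, chaperones and variants the number was 1. It was 0 with no minimum level, 2 with a minimum of 5 FPKM, 4 with quantile normalization, 0 with siLIX1L 1 and 2 averaged, 8 with DESeq2 and 0 with the trend removed, and 0 to 4 with 1 library left out. Fewer samples are part of the left-out and averaged settings; for the other settings the cause was not tested. Samples of the 2 groups share only a replicate number (correlations of same-numbered deviations -0.12 and -0.10), and the fit with the replicate block gave 4 histone genes and 1 list gene; under the block H1-2 had an adjusted p of 0.0635 (limma). Class ratios moved by more than their spread only without the member with the most reads over all libraries, to 0.730 for H2B and 0.656 for the genes with a known polyadenylated form. Of 288 values of 20 genes under 15 alternatives, 234 kept direction and side of the threshold, 29 no longer passed, 12 newly passed and 13, of 7 genes, turned direction, none of them past the threshold before. The turned values were, for H2AC6, -0.066 under the replicate block and -0.0084 with edgeR, with -0.32 to 0.37 over the left-out libraries; for H2AC25, 0.13 with the trend removed; for H2AC11, -0.10 (without control 2) to 0.68 over the left-out libraries; for H2BC5, -0.28 to 0.16 (without control 1) over them, and 0.26 with the trend removed; for H3C6, -0.84 to 0.13 (without control 1); for H4C8, -0.20 (without control 2) to 0.39; and for NPAT, -0.026 with quantile normalization, -0.070 (without control 2) to 0.21 and -0.15 with the trend removed. Depth limits the members under about 100 reads, which is most of them.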

Other observations

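Within the groups, the controls differed far more than the LIX1L siRNA libraries did, in histone genes and over all genes. Over members with at least 20 reads in the pair, the chi-square per gene was 38.0 between control 1 and control 2, against 2.44 to 7.81 between LIX1L siRNA libraries. Over all genes it was 120.6 between the controls, 5.59 between siLIX1L 1 and siLIX1L 2, and 55.4 between either of these and siLIX1L 3. In histone genes the gap had no single direction. H1-2 had 203 FPKM in control 1 and 167 in control 2, whereas H1-10 had 59.3 and 133, H2AC19 3.46 and 6.98, and H2BC21 14.4 and 21.6 FPKM. All 73 genes together summed to 515.0 and 539.3 RPM in the controls and to 325.3, 295.3 and 333.8 RPM after LIX1L siRNA, so the controls lay close together in that sum (ratio 0.603).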
